A study of Mus musculus with 16 samples.

Results

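The enzymes that make and break down heme were followed in quadriceps and brown fat of mice carrying a modified Ppargc1a gene. The set was fixed by name: Alas1, Alas2, Alad, Uros, Urod, Cpox, Ppox and Fech of the synthesis route, and Hmox1, which opens the heme ring. All 9 are listed in both tissues, out of 17539 genes in the quadriceps table and 18000 in the brown fat table, of which 16882 are shared. Mice homozygous for the uORF-TAA allele of Ppargc1a, the gene of the transcriptional coactivator PGC-1alpha, were compared with wild-type littermates. All were male C57BL/6 mice of 10 weeks kept at room temperature, with 4 libraries per genotype in each tissue. Whole-tissue mRNA was sequenced, so less of an mRNA per cell and fewer cells that carry it cannot be told apart. Per-mouse values were not analysed here: each gene has 1 mean over the 8 libraries of a tissue and 1 comparison between genotypes, both from the authors. Fold changes are uORF-TAA over wild type, which takes the genotype named first for each table as the numerator, an assumption. The brown fat table names wild type first, so the sign of its deposited log2 fold changes was turned throughout. Brown fat values credited below to the authors' deposited table carry this turned sign. Were the assumption wrong for brown fat, every direction given for that tissue would turn over.

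Heme is an iron-bearing ring that cytochromes, catalase and myoglobin need in order to work. Its synthesis starts and ends in the mitochondrion and passes through the cytosol, and the first step, made by the ALAS enzymes, sets the rate. ALAS1 serves most tissues and is induced by PGC-1alpha in the fasted liver, while ALAS2 is the form of red cell precursors. HMOX1 is an inducible enzyme that releases iron, carbon monoxide and biliverdin from heme, and macrophages that clear old red cells use it heavily.

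Motifs were searched for ahead of the start sites, and a match of each isozyme of the first step is printed below. Their part in the values that follow was not tested. RefSeq promoter windows of GRCm38.p6 were matched by symbol for 7 of the 9 genes: Alas1, Alas2, Alad, Uros, Urod, Cpox and Ppox. In the 250 bases before a start, both strands were searched for GCATGCG, the core of the site of nuclear respiratory factor NRF-1, and for AGATAA, the site of GATA factors. The NRF-1 letters were found in 1 of the 10 windows that these genes have, of Alas1, and in 3.02% of all 32851 windows. The GATA letters were found in 1 of the 10, of Alas2, and in 9.99% of all windows, which is a like share. The stretches of 30 bases below run 5′ to 3′ along the gene's strand, with the matched letters in capitals. The Alas1 stretch lies at chr9:106247905-106247934 on the minus strand and the Alas2 stretch at chrX:150547319-150547348 on the plus strand.
Alas1, NRF-1 core: gcacccaaggcGCATGCGcggcggtcactc
Alas2, GATA letters on the other strand: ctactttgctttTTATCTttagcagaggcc
The Alas1 match, which overlaps a match on the other strand, is centred 190 bases before one of its listed starts, and the Alas2 match 83 bases before its own. CACGTG, an E-box, was found in 4 of the 10 windows (those of Alad, Urod and Uros) and in 6.02% of all windows. TGACNNNGC, the stress response element of NRF2, was found in 0 of the 10 and in 10.2% of all windows. A match describes letters only, and no binding was measured.

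The tissues hold very different amounts of these mRNAs. Levels are given here as mean normalized counts per M of summed counts (M, mega) and per kilobase of the longest coding transcript, which allows genes to be compared within a tissue. Hmox1 was the highest of the 9 in brown fat at 234, with Urod (uroporphyrinogen decarboxylase) next at 48.2, Alas2 at 43.6, Alas1 at 37.9 and Alad (aminolevulinate dehydratase) at 35.4. Below these came Fech, which puts iron into the ring, at 17.3, Ppox at 16.6, Uros at 14.2 and Cpox at 6.23. In quadriceps the order was another: Alas1 led at 29.0, followed by Fech at 23.0, Hmox1 at 17.7 and Urod at 15.3. Cpox stood at 9.53, Uros at 6.09, Alad at 5.88 and Ppox at 2.83, and Alas2 was the lowest at 1.91. The first and last enzymes of the route thus led in muscle, and Hmox1 led in brown fat. Without values per library, no spread can be set beside neighbours in these orders. They also lean on transcript length: with the median coding transcript, Fech reads 64.4 in quadriceps and passes Alas1 at 53.7.

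**Figure D1:**
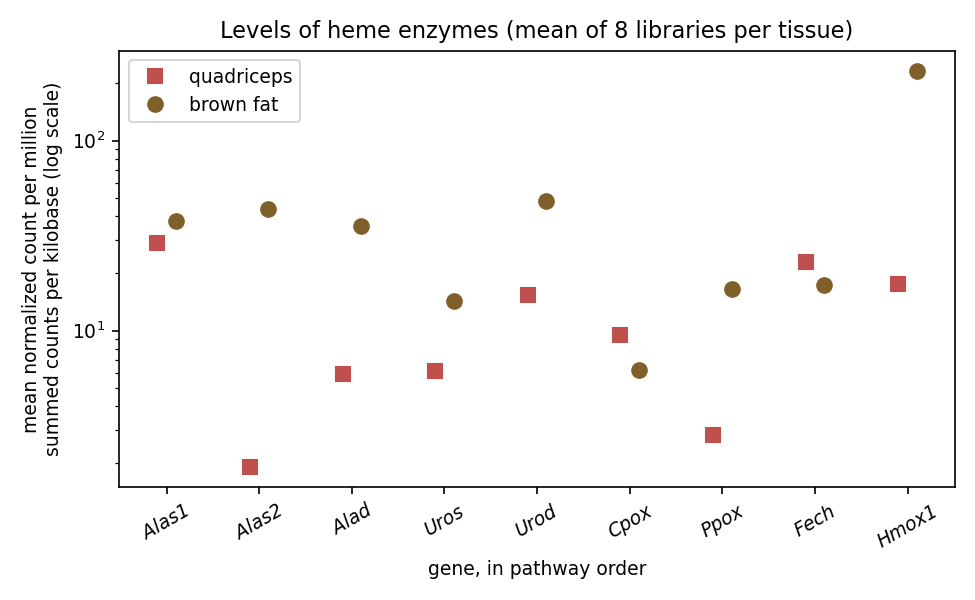
Level of each heme enzyme in quadriceps (squares) and brown fat (circles), as mean normalized count per M of summed counts per kilobase on a log scale; each point is a mean over 8 libraries. Alas2 lies at 1.91 in quadriceps and 43.6 in brown fat, while Cpox and Fech are higher in quadriceps.

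Set side by side as shares of summed counts, Alas2 was 22.9-fold and Hmox1 13.2-fold higher in brown fat than in quadriceps. Alad was 6.02-fold, Ppox 5.88-fold, Urod 3.14-fold, Uros 2.34-fold and Alas1 1.30-fold higher in brown fat. The reverse held for Cpox, 1.53-fold higher in quadriceps, and Fech, 1.33-fold higher there. The tables were normalized separately, so these ratios are a description with no test. They depend on scale, because Myh4, a fast myosin, alone took 10.2% of summed counts in quadriceps. Scaled by the median ratio of 9282 genes, every ratio moved 1.88-fold towards quadriceps, to 12.2-fold for Alas2 and 7.04-fold for Hmox1, and Alas1 became 1.44-fold higher in quadriceps. Tissue identity matched the labels: the authors' deposited table gave Ucp1, the thermogenic uncoupling protein of brown fat, a mean normalized count of 47561 in brown fat and 6.70 in quadriceps.

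The genotypes were compared next, in brown fat first. By the deposited Wald test none of the 9 enzymes passed an adjusted p of 0.05, where 0.0863% of the 9272 genes with an adjusted p did, and all 9 adjusted p values of the authors' deposited table are 1.00. Every one of the 9 lay above 0, against 51.2% of all tested genes and 53.6% of those with a mean of at least 50. Their median log2 fold change was 0.08, against 0.0015 over all tested genes, and it remained 0.08 without Alas2. The 9 genes were measured in the same mice, so their common sign is not made of independent observations.

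Alas2 was the member with the lowest p in brown fat. With the sign turned, the authors' deposited table put its log2 fold change at 0.34 ± 0.13 (SE), with an interval (95%) from 0.09 to 0.58. Its unadjusted p by the deposited Wald test was 0.00840 and its mean normalized count 1139. It was the 1 member of 9 under an unadjusted p of 0.05, where 2.07% of tested genes were in either direction and 0.918% were higher. The housekeeping isozyme Alas1 stood at 0.15 ± 0.11 (SE) on a mean of 1650 and an unadjusted p of 0.185 in the authors' deposited table. For Alas1 the interval ran from -0.07 to 0.37.

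Among the middle and late steps, Cpox and Fech were level with Alas1 and the others were lower. In the authors' deposited table for brown fat, Cpox (coproporphyrinogen oxidase) stood at 0.15 ± 0.11 (SE, log2 scale) on a mean normalized count of 247. Fech (ferrochelatase) had 0.15 ± 0.11 (SE) on a mean of 1458 in the authors' deposited table, and Ppox (protoporphyrinogen oxidase) 0.08 ± 0.10 on 389. Alad, Urod and Uros (uroporphyrinogen III synthase) stood at 0.08, 0.06 and 0.03 in the authors' deposited table, with means of 566, 920 and 321. The intervals of all of these cover 0.

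Hmox1 was the most abundant member by count in brown fat and had the smallest deposited standard error of the 9 there. Its entry in the authors' deposited table is a mean normalized count of 4699 and a log2 fold change of 0.02 ± 0.07 (SE). On the linear scale its interval from the deposited values ran from 0.923-fold to 1.12-fold, the narrowest among the 9 in that tissue.

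**Figure D2:**
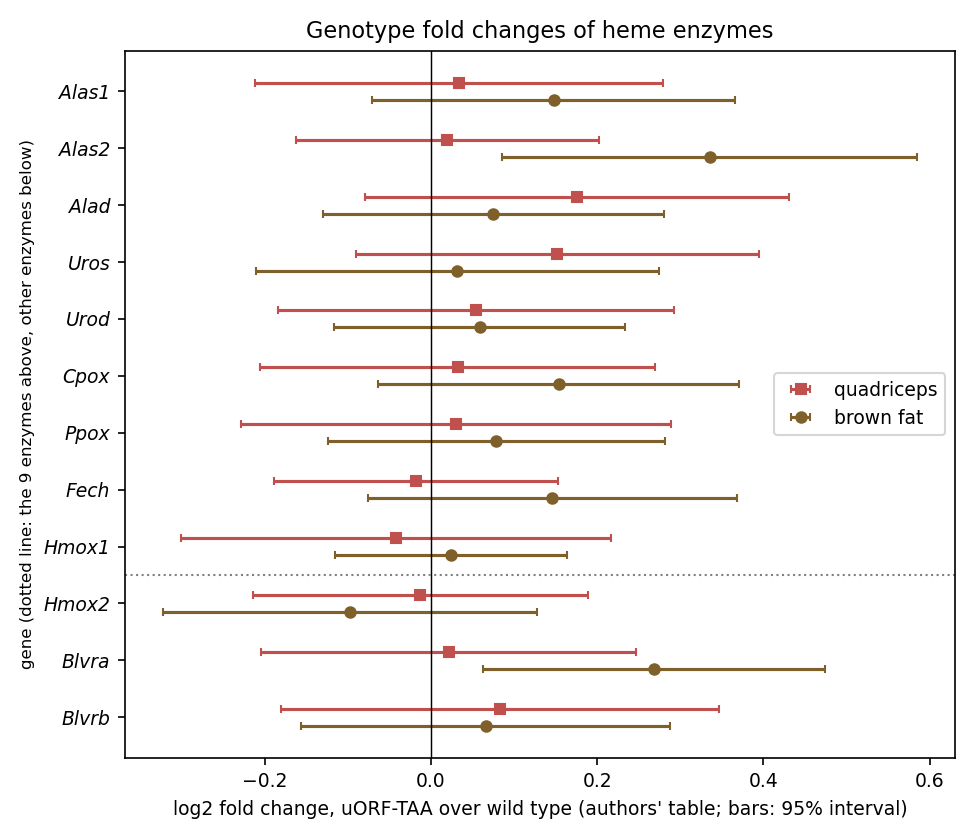
Log2 fold change of each heme enzyme, uORF-TAA over wild type, from the authors' deposited tables for quadriceps (squares) and brown fat (circles, sign turned). Bars are 95% intervals, and 3 other enzymes of heme breakdown stand below the dotted line. In brown fat all 9 points lie above 0, and among the 9 the interval of Alas2, from 0.09 to 0.58, is the one that leaves out 0.

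In quadriceps the enzymes did not separate from the other genes. None of the 9 passed an adjusted p of 0.05, where 0% of 17521 tested genes did, and none had an unadjusted p under 0.05, where 2% did. Of the 9, 7 lay above 0, against 51.7% of all tested genes and 50.9% of those with a mean of at least 50, with a median log2 fold change of 0.03. Alad had 0.18 ± 0.13 (SE) on a mean normalized count of 154 and an unadjusted p of 0.176, the lowest of the 9 in the authors' deposited table. Uros followed at 0.15 ± 0.12 (SE) on a mean of 226 in the authors' deposited table. Both enzymes act in the cytosol, and in brown fat they stood at 0.08 and 0.03. Uros overlaps Bccip in RefSeq, and whether counting used strand is not given in the sources used here. Bccip had a mean normalized count of 1217 and a log2 fold change of -0.02 in quadriceps, and 862 and -0.07 in brown fat.

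The remaining members stayed within 0.06 of 0 on the log2 scale in muscle. The authors' deposited table gave Urod 0.05 on a mean of 480, Alas1 0.03 on 2075, Cpox 0.03 on 621, Ppox 0.03 on 109 and Alas2 0.02 on 81.7. Fech, the most abundant member by count at 3178, had -0.02 ± 0.09 (SE), and Hmox1 had -0.04 ± 0.13 (SE) on a mean of 583 in the authors' deposited table. For Alas1 the fold interval in quadriceps ran from 0.864 to 1.21.

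Alas2 stood apart in its standard errors. Per the authors' deposited table its standard error in quadriceps was 0.09, whereas genes within 1.5-fold of its mean had a median of 0.13, and 10 of those 1688 genes had a smaller one. The deposited fold changes behave as shrunken towards 0, and under such shrinkage a very small standard error arises either from very precise or from very variable genes. The precise reading would give an unshrunken standard error of 0.108, narrowly under the 0.113 that counting noise alone allows at this mean. The variable reading was therefore taken. It gives an unshrunken log2 fold change of 0.14 ± 0.67 (SE), or a fold interval from 0.443 to 2.74. The median unshrunken standard error of the genes of like mean is 0.22, and 9 of 1688 exceed that of Alas2. On that reading, the flat fold change of Alas2 in quadriceps is a value with wide error.

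In brown fat Alas2 varied widely, and there the 2 readings nearly coincide. The unshrunken log2 fold change is 0.65 ± 0.25 (SE) in one and 0.69 ± 0.26 in the other, and the first is a 1.57-fold difference with an interval from 1.12 to 2.21. Among the 1928 genes of like mean in brown fat, 14 had a larger unshrunken standard error, and the median was 0.12. For the other 8 enzymes the more precise reading was taken, and their largest unshrunken fold in brown fat was 1.15, which Cpox, Fech and Alas1 all had. Counting noise could not decide between the readings for these 8. For Hmox1 in brown fat the precise reading gives 0.03 ± 0.08 (SE) and the variable one 0.28 ± 0.83. These unshrunken values are approximations from the deposited statistic and standard error.

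**Figure D3:**
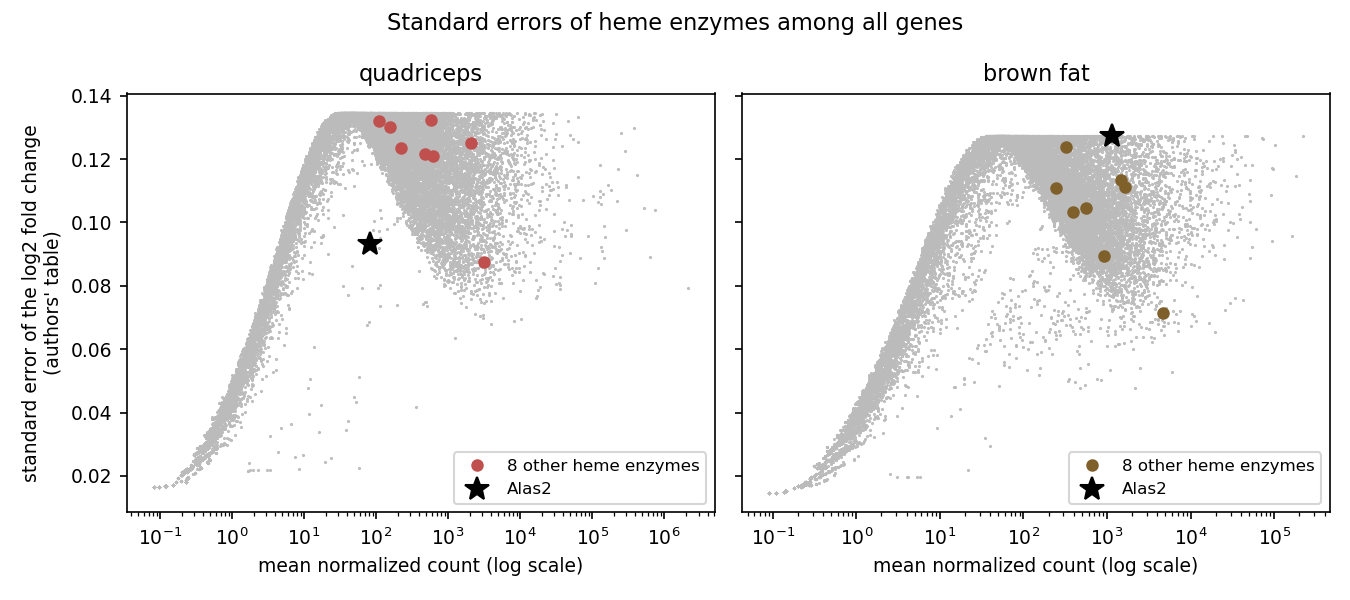
Deposited standard error of the log2 fold change against mean normalized count (log scale) for all genes (grey), the 8 other heme enzymes (circles) and Alas2 (star) in each tissue. In quadriceps Alas2 falls below the cloud of genes of like mean at 0.09, and in brown fat it sits at the upper edge at 0.13.

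Red cell markers were set beside Alas2, since red cell precursors are its known source. Of the 17 symbols fixed for that lineage 9 are listed, and the globin genes were not analysed here. In brown fat 6 of the 9 lay above 0, against 51.2% of all tested genes, with a median log2 fold change of 0.02. In quadriceps 7 of the 9 did, against 51.7%. In both tissues 0 were under an unadjusted p of 0.05, where 2.07% of tested genes were in brown fat and 2% in quadriceps. In brown fat Slc4a1, the band 3 anion exchanger, had 0.17 ± 0.11 (SE) with an unadjusted p of 0.119 in the authors' deposited table. The erythroid factors Gata1 and Klf1 had mean normalized counts of 1.05 and 1.27 in brown fat in the authors' deposited table, and 0.457 and 1.04 in quadriceps. Their part in the Alas2 values was not tested. In the authors' deposited table the mean counts of the 9 markers in brown fat ran from 0.537 to 40.9. Alas2 equalled 9.32 times their sum in brown fat and 2.78 times in quadriceps. As shares of summed counts Slc4a1 was 7.62-fold higher in brown fat than in quadriceps, below the 22.9-fold of Alas2. Epor, the erythropoietin receptor, came nearest at 20.8-fold. Alas2 also overlaps Apex2, a DNA repair gene, in RefSeq, and whether counting used strand is not given in the sources used here. In the authors' deposited table for brown fat Apex2 reached a mean normalized count of 127, and its log2 fold change was 0.02.

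**Figure D4:**
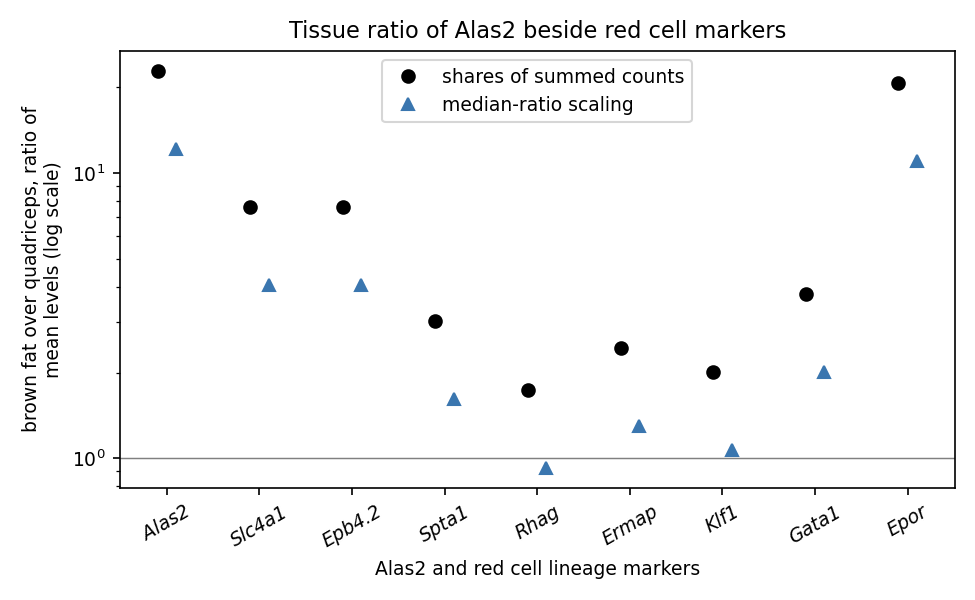
Ratio of mean level in brown fat to that in quadriceps for Alas2 and 8 of the 9 red cell lineage markers on a log scale, as shares of summed counts (circles) and after median-ratio scaling (triangles). Alas2, at 22.9 and 12.2, lies above Slc4a1 at 7.62 and 4.06, and Epor, at 20.8 and 11.1, is nearest to it.

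Differences between the tissues' genotype effects were then tested. Brown fat minus quadriceps, 0 of the 9 enzymes differed at an adjusted p of 0.05, where 0% of 16844 genes did, and the 9 adjusted p values are all 1.00 by the normal test of the difference. Alas2 differed by 0.32 ± 0.16 (SE) on the log2 scale with an unadjusted p of 0.0453, and it was the 1 member under 0.05, where 1.16% of genes were. With unshrunken values the same difference is 0.51 ± 0.72 (SE) and its p 0.473, because the wide error of Alas2 in quadriceps then counts in full. Fech came next at 0.16 ± 0.14 (SE), with an interval from -0.12 to 0.44. The test takes the tissues as independent, and the labels do not say whether both came from the same mice.

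The remaining enzymes of the route were read from a fixed list of heme synthesis, breakdown and transport genes, 23 of 25 listed. In brown fat 17 of the 23 lay above 0, against 51.2% of all tested genes. There 2 were higher and 0 lower under an unadjusted p of 0.05, where 0.918% and 1.15% of tested genes were, with 0 past the adjusted threshold, and a median of 0.04. Blvra, which turns biliverdin into bilirubin directly after HMOX1, stood at 0.27 ± 0.11 (SE) with an unadjusted p of 0.0107 in the authors' deposited table. Slc25a37 (mitoferrin-1), which brings iron into mitochondria for ferrochelatase, had 0.22 ± 0.10 (SE) and 0.0192 in the authors' deposited table. Its relative Slc25a28 (mitoferrin-2) had -0.02 ± 0.09 (SE) in the authors' deposited table for brown fat. Blvrb stood at 0.07 and Hmox2, the constitutive heme oxygenase, at -0.10 in the authors' deposited table. In quadriceps 13 of the 23 lay above 0, against 51.7% of all tested genes, with 0 under an unadjusted p of 0.05, where 2% were. There the lowest p values were those of Slc25a28, at -0.16 ± 0.11 (SE), and Abcb10, a transporter of the mitochondrial inner membrane, at 0.14 ± 0.12, in the authors' deposited table. Hmox2, Blvra and Blvrb had -0.01, 0.02 and 0.08 in quadriceps in the authors' deposited table.

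Genes of iron handling and of proteins that carry heme were read from further lists. Of all tested genes, 51.2% lay above 0 in brown fat and 51.7% in quadriceps, and 2.07% and 2% were under an unadjusted p of 0.05. Of the iron and iron-sulfur genes, 9 of 14 lay above 0 in brown fat and 10 of 13 in quadriceps, with 0 under an unadjusted p of 0.05 in either. In the authors' deposited table for brown fat the lowest p values were those of the iron hormone gene Hamp, at -0.05 on a mean count of 1.48, and of the ferrireductase gene Steap3, at 0.18. For quadriceps the authors' deposited table had Slc40a1 (ferroportin, the iron exporter) at 0.12 and Fth1 (ferritin heavy chain) at -0.09. The list of heme proteins also holds Por, a reductase that carries no heme. Its genes lay above 0 in 10 of 12 cases in brown fat and 8 of 12 in quadriceps, again with 0 under an unadjusted p of 0.05. Por was among those below 0 in both, at -0.0074 in brown fat and -0.05 in quadriceps in the authors' deposited table. Catalase (Cat), which holds heme, had -0.22 ± 0.12 (SE) and an unadjusted p of 0.0757 in brown fat in the authors' deposited table, opposite in sign to the 9 enzymes. Cygb (cytoglobin) was second by p in brown fat at 0.14, and Sdhd, a subunit that anchors the heme of complex II, was first in quadriceps at 0.13, in the authors' deposited table.

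Factors known to act on Alas1, Alas2 or Hmox1 were read next. Of 15 tested in brown fat, 6 lay above 0, against 51.2% of all tested genes, with 0 higher and 3 lower under an unadjusted p of 0.05, where 0.918% and 1.15% of tested genes were, and 0 past the adjusted threshold. The authors' deposited table put Foxo1, which acts on Alas1 in liver, at -0.41 ± 0.12 (SE) with adjusted p = 0.291. Maff, a small MAF partner of NRF2 and BACH1, had -0.32 ± 0.12 (SE) with 0.942, and Nr1d1, a nuclear receptor that binds heme, -0.34 ± 0.12 with 0.797, in the authors' deposited table. In quadriceps 7 of 16 lay above 0, against 51.7% of all tested genes. There 2 of the 16 were higher and 2 lower under an unadjusted p of 0.05, where 0.942% and 1.06% of tested genes were. Nr1d1 at 0.26 ± 0.12 (SE) and Ppargc1b, the PGC-1beta gene, at 0.28 ± 0.13 were the higher ones in the authors' deposited table. Maff at -0.32 and Foxo1 at -0.27 were the lower ones in the authors' deposited table. Nr1d1 thus had opposite signs in the tissues, a difference of -0.61 ± 0.17 (SE) with an unadjusted p of 3.03e-04 and an adjusted p of 1.00. Other targets of NRF2, the stress factor that induces Hmox1, lay above 0 in 4 of 10 cases in brown fat and 3 of 10 in quadriceps. Among them Gsr (glutathione reductase) had -0.22 ± 0.11 (SE) and an unadjusted p of 0.0472 in quadriceps in the authors' deposited table, the 1 gene of that list under 0.05 in either tissue. Gsta4, a glutathione transferase, had the lowest p of the list in brown fat, at 0.21 ± 0.11 (SE) in the authors' deposited table.

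Markers of the cells that could carry these mRNAs were read in the same way. Of all tested genes, 51.2% lay above 0 in brown fat and 51.7% in quadriceps. Macrophage markers lay above 0 in 3 of 11 cases in brown fat and 5 of 11 in quadriceps, with medians of -0.03 and -0.02. Cd163, the hemoglobin scavenger receptor, had the lowest p of the list in both tissues, at -0.14 ± 0.13 (SE) in the authors' deposited table of each. The highest member Lyz2 had a mean normalized count of 1068 in brown fat in the authors' deposited table, where Hmox1 had 4699. Brown adipocyte markers lay above 0 in 10 of 10 cases in brown fat, with a median of 0.09, and in 9 of 10 in quadriceps, with a median of 0.06. The medians of the heme enzymes were 0.08 and 0.03. Dio2, an enzyme that activates thyroid hormone, was the 1 of these under an unadjusted p of 0.05, at 0.48 ± 0.12 (SE) in brown fat in the authors' deposited table. There 0.918% of tested genes were higher under 0.05, and the adjusted p of Dio2 by the deposited Wald test was 0.0990. Their part in the common sign of the heme enzymes was not tested. Muscle fibre markers lay below 0 in 10 of 10 cases in brown fat, with log2 fold changes from -0.03 to -0.0023, and above 0 in 5 of 10 in quadriceps. Apart from the turned sign, these brown fat values are as deposited, with small standard errors such as 0.05 for Myh2 and 0.07 for Acta1. On the variable reading described for Alas2, Myh2 would stand at -0.62 ± 1.14 (SE) and Acta1 at -0.03 ± 0.92. Counting noise could not decide between the readings for these genes.

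**Figure D5:**
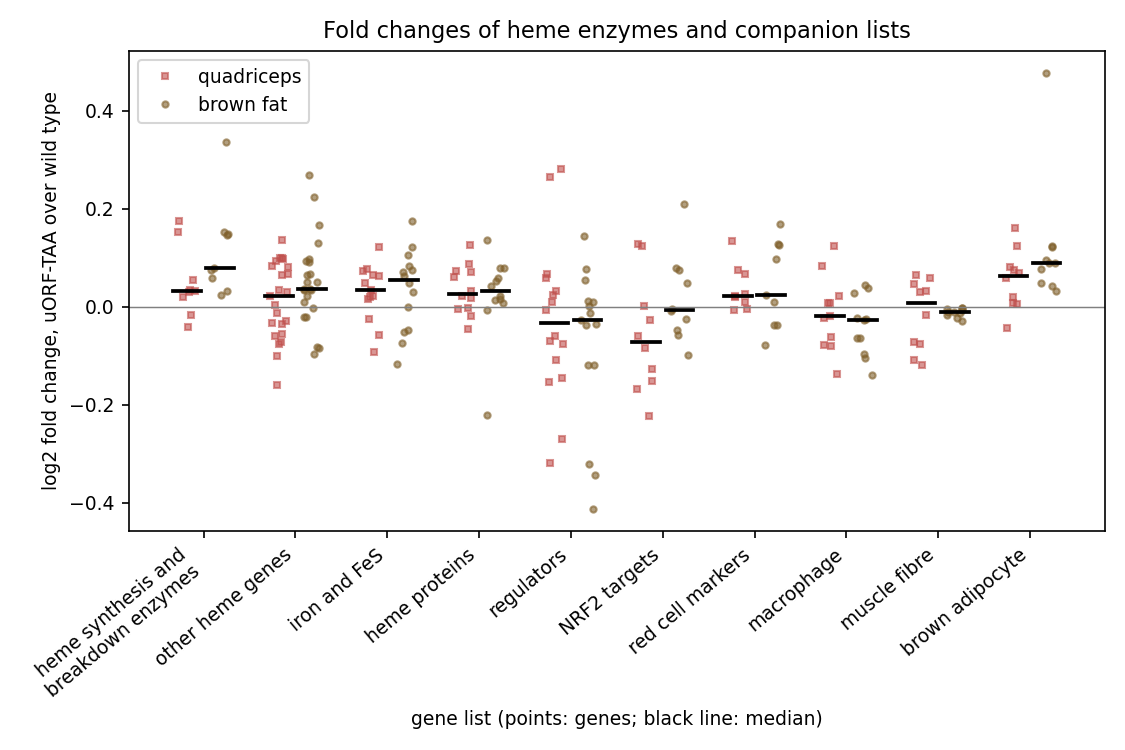
Log2 fold changes, uORF-TAA over wild type, of the 9 heme enzymes and of 9 companion lists in quadriceps (squares) and brown fat (circles); black lines are medians. The heme enzymes and the brown adipocyte markers of brown fat lie wholly above 0, with medians of 0.08 and 0.09.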

How the data were processed

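Per the labels, mRNA of 16 libraries was sequenced, 4 per genotype in each tissue. The submitters' processing notes name STAR 2.5.1b, DESeq2 1.10.1 and the build mm9, with no roles; neither counter nor annotation is named (not given in the sources used here). The deposited tables, 1 per tissue, hold a mean normalized count (a signal averaged by the authors over 8 libraries), a log2 fold change with its SE, the Wald statistic (a score) and p-values. Recomputing the deposited score, p-value and Benjamini-Hochberg adjustment returned the deposited values. For brown fat, 9272 of 17973 genes with a p-value have a deposited adjusted one. The sign of the brown fat fold changes and scores was turned to read uORF-TAA over wild type.

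Depth, recovered from genes with a single read, ran from 11.4 to 31.8 M counts in quadriceps and 11.0 to 17.8 M in brown fat (M, mega). Unshrunken values were solved from SE = √I/(I + λ), where I is the information on the fold change and λ the weight of the shrinkage, taken from the largest deposited SE (0.135 and 0.127). This has 2 roots; the precise one was used unless it fell under counting noise. Tissue effects were compared by a two-sided normal test of the difference, adjusted over 16844 genes. Transcript lengths came from GENCODE M21 coding transcripts, as RefSeq transcript lengths were not used here. Python 3.11.15, pandas 2.3.3, SciPy 1.17.1 and matplotlib 3.10.9 were used, and the procedures were tested on simulated data.

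The members and all lists were chosen with earlier results of these data known. Genes named are the 9 enzymes, Hmox2, Blvra and Blvrb, and from each list up to 4 members under an unadjusted p of 0.05 per tissue, or else the 2 of smallest p; for marker lists also the most abundant. A few picks of this rule are left out here. Apex2 was added as it overlaps Alas2, and Bccip as it overlaps Uros.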

Additional observations from a re-analysis of the deposited data

How the results depend on the processing

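No paired analysis was possible because the tables hold no values per library, and for the same reason no mouse could be left out. At an unadjusted p under 0.05 the count of heme enzymes called was 1 in brown fat and 1 for the difference between tissues, Alas2 in each, against 0 when adjusted. With the opposite numerator for brown fat, 0 of 9 lay above 0, and the Alas2 difference became -0.36. Median-ratio scaling turned the brown fat to quadriceps ratio of Alas1 to 0.695 and moved the ratios of the 8 others without turning them. Adjustment over every gene with a p-value, a mean of at least 10, centring on the median fold change and unshrunken values were also tried. They left the other counts and the medians within the bounds set, and turned no member's sign. The unshrunken median was 0.10 in brown fat and 0.05 in quadriceps. For Alas2 in quadriceps the unshrunken SE of 0.67 belongs to the variable reading. That reading was taken because the precise one, 0.108, fell narrowly under the 0.113 that counting noise alone allows. The part of depth in its error was not tested.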
